A study of Mus musculus with 15 samples.

Results

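The genes described here are 10 that encode NF-κB subunits, IκB proteins and ubiquitin enzymes that regulate NF-κB. They were taken by name from a list for which no threshold on their values was used, although earlier results of these data were known when it was drawn up, and followed through every library of 3 tables of raw counts. The subunit genes among them are Nfkb1, Nfkb2, Rela and Relb, while Rel, a further subunit gene, is given with the rest of the pathway. Nfkbia and Nfkbie encode classical IκB proteins, and Nfkbiz and Bcl3 nuclear ones. Tnfaip3 and Birc3 encode enzymes of ubiquitin signalling upstream of the IκB kinase. All 10 were found in each table, among 15175 genes of the MC table and 49585 genes of each of the HC and KMC tables, and all 10 had enough reads to be tested in every comparison. In GRCm38 the pairs Rela (chr19:5637483-5648130) and Nfkb2 (chr19:46304320-46312385), and Relb (chr7:19606217-19629438) and Bcl3 (chr7:19808462-19822770), each share a chromosome, while Nfkb1 (chr3:135584655-135691547), Nfkbia (chr12:55489410-55492647), Nfkbie (chr17:45555703-45563169), Nfkbiz (chr16:55811375-55838899), Tnfaip3 (chr10:19000910-19015657) and Birc3 (chr9:7848699-7873186) lie on their own.

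The 15 libraries were made from pancreas of C57BL/6 mice, and each held RNA pooled from 3 mice. The mice carried transgenes for HPK1 (hematopoietic progenitor kinase 1, gene Map4k1) or for its kinase-dead form M46, switched on by Bac-cre, a tamoxifen-inducible Cre under an acinar elastase promoter. MC mice (genotype HPK1-M46) and their controls (B control, Bac-cre without the transgene) were 2 months old, with 3 libraries each. Mice labelled HC (genotype HPK1/B, 3 libraries) and their controls (labelled WT, 2 libraries) were 4 months old. The series description gives cerulein treatment for MC, HC and wild type (B) mice; this peptide drives acinar cells to oversecrete and brings on acute pancreatitis. No sample label states the treatment, and whether the controls labelled WT were treated as B mice were could not be settled from the labels, so in the HC comparison a difference in treatment cannot be told apart from the transgene. KMC mice (genotype M46/Ras/B, 2 libraries, 9 months) carried M46, and KC mice (genotype Ras/B, 2 libraries, 15 months) were their controls without M46. The labels call these 4 samples pancreas, and the methods of the study treat them as pancreatic cancers. The transgene needs Cre for its expression, the endogenous Map4k1 gene was still present, and whole pancreas holds leukocytes and stroma besides acinar cells.

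NF-κB is a family of dimeric transcription factors that IκB proteins hold in the cytoplasm. In the canonical route, signals from TNF, interleukin 1 or Toll-like receptors make the IκB kinase complex mark IκB for destruction, and dimers of RelA and the Nfkb1 product p50 enter the nucleus. In the noncanonical route, receptors such as CD40 and the lymphotoxin-β receptor stabilise the kinase NIK, the Nfkb2 precursor p100 is processed to p52, and p52 acts with RelB. Several genes of the system are themselves targets of NF-κB, so that IκBα (Nfkbia) and A20 (Tnfaip3) shut the response down in a negative feedback loop. In pancreatitis NF-κB is known to be active both in acinar cells and in the leukocytes that enter the gland. HPK1 is best known in T cells, where it connects antigen receptors to NF-κB and to JNK.

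Counts per library ranged from 29.8 to 38.7 M (mega) over the 6 groups. Levels are given as CPM, counts per mega (M) counts after TMM scaling within a table, and 3 counts corresponded to between 0.0357 and 0.204 CPM. Every member had at least 8 counts in every library. Map4k1, which checks the transgene label, was at 6.79 to 8.32 CPM in MC and 2.34 to 4.14 CPM in its controls. The libraries labelled HC had 5.05 to 7.93 CPM of it against 11.5 and 15.4 CPM in controls, which goes against that label. In KMC it was at 5.92 and 11.4 CPM against 0.545 and 1.55 CPM in KC. In all 3 comparisons its log2 fold change (1.13, -0.99 and 2.99) had the sign of that of the leukocyte gene Ptprc (1.66, -0.95 and 2.78). One of the libraries labelled HC, number 3, had Ddx3y, a gene of the Y chromosome, at 48.4 CPM and Xist at 0.761 CPM, whereas the other 4 libraries of that experiment had 0 counts of Ddx3y and 579 to 929 CPM of Xist. Both KC libraries had Ddx3y at 10.7 and 17.3 CPM and both KMC libraries had 0 counts of it, so sex, age and M46 cannot be told apart in that comparison. The 24 acinar marker genes made up 34.6 to 43.4% of MC counts and 39.9 to 52.6% of those of MC controls, 5.6 to 8.74% in the libraries labelled HC and 6.69 to 8.42% in theirs, and 23.3 to 45.4% in KMC and 56.2 to 63.9% in KC. In such bulk RNA, fewer cells of a type and less RNA per cell cannot be told apart.

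The κB site, the DNA element bound by NF-κB dimers, is what makes several of these genes part of the feedback loop, and its matches near their starts are shown here. Windows of 250 bases before a RefSeq transcript start (build GRCm38.p6) were at hand for 7 of the 10 members. Nfkb1, Relb and Nfkbiz were not in that table. Matches to the standard κB consensus, searched on both strands, were found in 6 of 10 windows and in 4 of those 7 members: Nfkb2, Nfkbia, Nfkbie and Tnfaip3. Of all 32851 mouse windows of that length, 2382 or 7.25% held a match, and of 27025 genes 8.23% had at least 1 window with one. No match was found in the windows of Rela, Birc3 and Bcl3. A match is a sequence of letters and was not tested for binding. The stretches with a match follow, read along the gene's strand, with the κB letters in capitals and 10 bases on either side of the first match. The first one holds a pair of overlapping matches, at 39 and 38 bases before the start.
Nfkb2, chr19:46304688-46304717, plus strand, 39 bases before the start: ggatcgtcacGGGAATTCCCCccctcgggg
Nfkb2, chr19:46304716-46304745, plus strand, 11 bases before the same start: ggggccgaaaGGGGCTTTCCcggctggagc
Nfkb2, chr19:46305449-46305478, plus strand, 236 bases before a second start: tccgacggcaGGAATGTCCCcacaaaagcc
Nfkb2, chr19:46305695-46305724, plus strand, 225 bases before the third start: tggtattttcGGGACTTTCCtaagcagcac
Nfkbia, chr12:55492657-55492686, minus strand, 29 bases before the start: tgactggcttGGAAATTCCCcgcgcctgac
Nfkbie, chr17:45555584-45555613, plus strand, 106 bases before the start: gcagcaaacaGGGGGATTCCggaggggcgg
Tnfaip3, chr10:19015516-19015545, minus strand, 125 bases before the start: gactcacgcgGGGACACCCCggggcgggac
Tnfaip3, chr10:19015403-19015432, minus strand, 12 bases before the same start: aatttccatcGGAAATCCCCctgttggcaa

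Nfkbie and Nfkbia encode IκB proteins of the same family, and their fold changes lay far apart in the KMC comparison described further on, so the whole 250 bases before each start are given, again with the match in capitals. Each window held 1 match.
Nfkbie, chr17:45555450-45555699, plus strand: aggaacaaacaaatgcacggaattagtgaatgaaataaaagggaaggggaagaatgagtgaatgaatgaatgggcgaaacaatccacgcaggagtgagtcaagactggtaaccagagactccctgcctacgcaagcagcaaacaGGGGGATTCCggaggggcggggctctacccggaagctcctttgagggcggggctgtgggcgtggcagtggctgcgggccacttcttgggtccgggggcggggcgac
Nfkbia, chr12:55492648-55492897, minus strand: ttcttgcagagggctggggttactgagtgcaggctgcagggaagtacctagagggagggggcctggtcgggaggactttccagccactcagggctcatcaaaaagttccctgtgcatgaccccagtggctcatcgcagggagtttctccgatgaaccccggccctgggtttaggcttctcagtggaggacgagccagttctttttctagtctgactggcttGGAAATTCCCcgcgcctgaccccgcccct

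Levels of different genes were compared per kilobase of exon, as CPM per kb. Rela and Nfkbia were the most abundant of the 10 in every control group. In the MC controls Rela was at 35.6 ± 10.9 CPM per kb (SD, n = 3) and Nfkbia at 23.0 ± 6.66, which lay within their spread of each other. Nfkb2 (11.4 ± 3.5) and Relb (10.7 ± 4.04) came next and did not differ beyond their spread. Bcl3 (4.65 ± 1.89), Nfkbiz (3.83 ± 1.18), Birc3 (2.97 ± 0.522) and Nfkb1 (2.91 ± 0.644) formed the next step, and Nfkbie (1.31 ± 0.636) and Tnfaip3 (1.2 ± 0.492) were lowest and level with each other. In the HC controls the order began with Nfkbia at 43.8 ± 3.34 CPM per kb (SD, n = 2) and Rela at 33.3 ± 3.78 and again ended with Nfkbie at 6.76 ± 2.67 and Tnfaip3 at 4.76 ± 0.968. In KC, Nfkbia (13.6 ± 4.94, n = 2) and Rela (10.2 ± 1.02) stood above the other 8, which ran from 2.11 ± 0.0178 for Nfkb2 down to 0.45 ± 0.0833 for Tnfaip3 and 0.375 ± 0.278 for Nfkbie. The tables came from separate experiments, so levels were not compared between them.

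**Figure D1:**
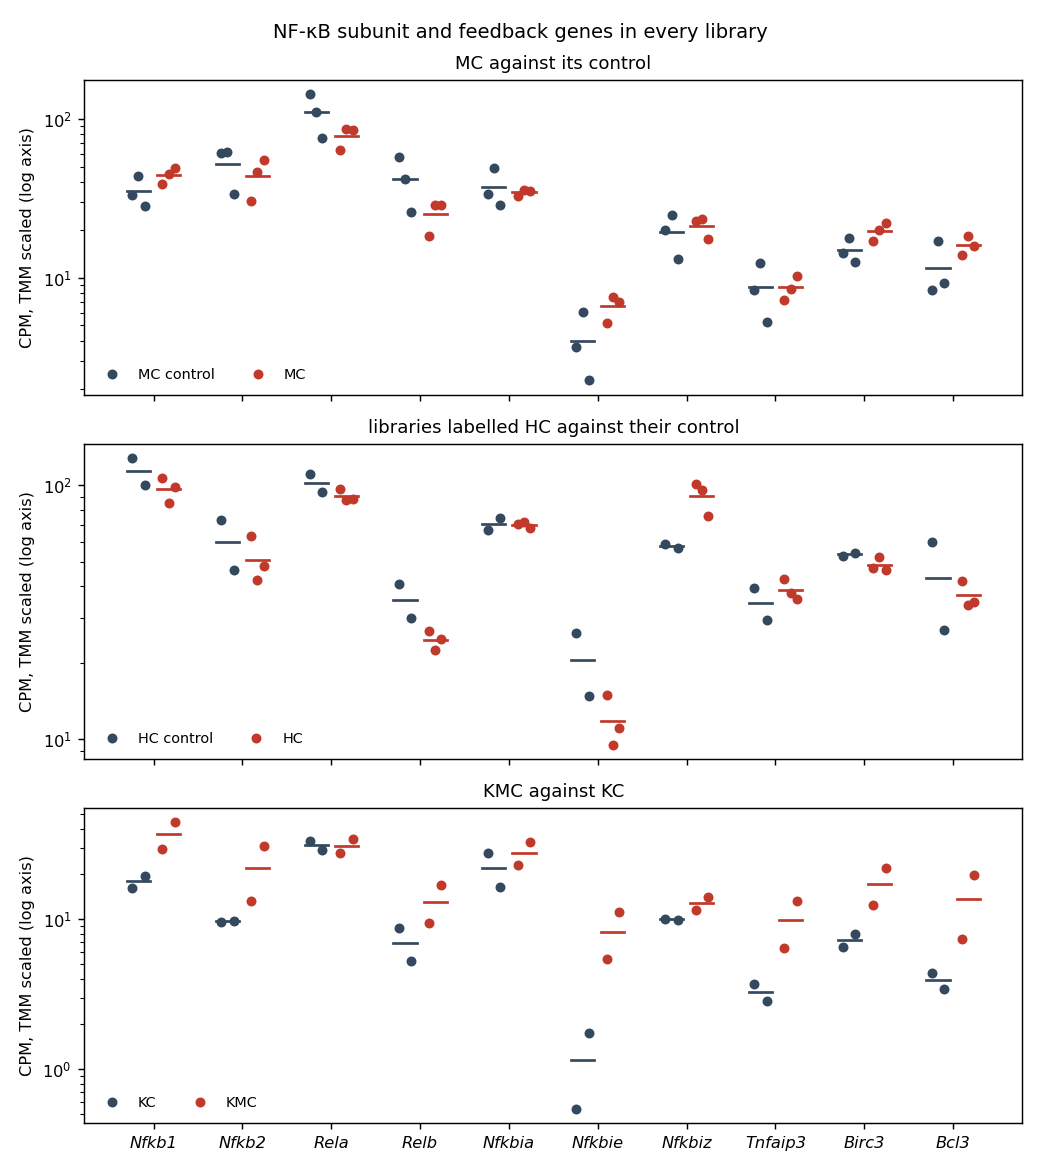
TMM-scaled CPM (log axis) of the 10 genes in every library of the 3 comparisons; points are libraries and bars are group means. In MC the groups overlap for each gene, among the libraries labelled HC only Nfkbiz lies wholly above its controls, and in KMC 8 genes lie wholly above KC.

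In MC pancreata after cerulein, no member passed the test against the controls. Nfkb1, which encodes p105 and p50, Nfkbie, Birc3 and Bcl3 had somewhat higher means, and Rela and Relb had lower ones. Of 13902 genes tested with edgeR's quasi-likelihood test, 0 passed (a Benjamini-Hochberg adjusted p up to 0.05 with a log2 change of 1 or more in either direction), which is 0%, and 0 of the 10 members passed. DESeq2 called 3.26% of genes and 0 members. Its shares, here and below, are of the genes to which it gave an adjusted p. The members' log2 fold changes ran from -0.72 to 0.71 with a median of 0.07, 5 above 0 and 5 below, while the median of all genes was -0.02. Groups did not overlap for 10.9% of genes in the higher direction and 9.89% in the lower, and for 0 members in either.

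Among the subunits, Nfkb1 was at 39.0, 44.9 and 49.3 CPM in the 3 MC libraries and 33.3, 43.6 and 28.4 CPM in the controls. The log2 fold change came to 0.34 (standard error 0.18, edgeR adjusted p = 0.396), and control library 2 reached into the MC range. Rela, the main transactivating subunit of the canonical route, was at 63.5, 85.8 and 84.8 CPM in MC against 143, 110 and 76.0 CPM in controls. The difference was -0.49 on the log2 scale (standard error 0.24, edgeR adjusted p = 0.375), with the third control below both upper MC libraries. Relb, the noncanonical partner of p52, was at 18.2, 28.7 and 28.7 CPM in MC against 57.2, 41.9 and 25.8 CPM in controls. Relb had the lowest fold change of the 10 (log2 -0.72, standard error 0.30, edgeR adjusted p = 0.328) and was the 1 member lower at an unadjusted p under 0.05, as were 5.46% of genes. Without control library 1 its value shrank to -0.42. Nfkb2, the precursor of p52, was at 30.3, 46.1 and 54.6 CPM in MC against 61.2, 61.4 and 33.5 CPM in controls, with ranges that overlapped widely.

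Of the classical IκB and ubiquitin enzyme genes, Nfkbie, which encodes IκBε, was at 5.17, 7.57 and 7.01 CPM in MC against 3.64, 6.07 and 2.25 CPM in controls. Its log2 fold change of 0.71 (standard error 0.35, edgeR adjusted p = 0.377) was the highest of the 10, and control library 2 lay above the lowest MC library. Nfkbia was at 32.6, 35.5 and 35.3 CPM in MC and 33.4, 49.1 and 28.6 CPM in controls. Tnfaip3, which encodes the ubiquitin-editing enzyme A20, was at 7.27, 8.48 and 10.3 CPM against 8.40, 12.4 and 5.26 CPM. Both feedback genes had the same means within the spread, 34.5 ± 1.6 against 37.0 ± 10.7 CPM for Nfkbia and 8.67 ± 1.51 against 8.67 ± 3.56 CPM for Tnfaip3 (SD, n = 3 each). Birc3, which encodes the ubiquitin ligase cIAP2, was at 16.9, 19.8 and 21.9 CPM in MC against 14.2, 17.7 and 12.6 CPM in controls (log2 0.39, standard error 0.17, edgeR adjusted p = 0.338). It was the 1 member higher at an unadjusted p under 0.05, as were 9.2% of genes.

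The nuclear IκB proteins, which bind p50 and p52 dimers on DNA, showed no difference beyond the spread. Bcl3 was at 13.8, 18.3 and 15.7 CPM in MC against 8.36, 16.9 and 9.26 CPM in controls (log2 0.47, standard error 0.27, edgeR adjusted p = 0.428). Nfkbiz, which encodes IκBζ, was at 22.7, 23.3 and 17.4 CPM against 20, 24.7 and 13 CPM. Control library 2 had the highest value of all 6 libraries for Nfkbia, Nfkbiz and Tnfaip3. Without it the member median was 0.35, 7 of 10 values were above 0, 718 genes and 0 members passed the edgeR test, and the log2 fold change was 1.15 for Nfkbie (adjusted p = 0.0564) and 0.85 for Bcl3 (adjusted p = 0.0378).

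In the libraries labelled HC, Nfkbiz was higher than in controls, Relb and Nfkbie were lower, and no member passed the test. Of 18407 genes tested, 0.565% passed in edgeR. In DESeq2 2.88% of the 16262 genes with an adjusted p passed, and 0 of 10 members passed in either tool. The member median was -0.2, with 2 values above 0 and 8 below, against a median of 0 over all genes. At an unadjusted p under 0.05, Nfkbiz was the 1 member higher, as were 8.39% of genes, and Relb and Nfkbie were lower, as were 7.47%. Groups did not overlap for Nfkbiz in the higher direction, where 17.5% of genes did the same, and for Relb and Birc3 in the lower, where 16.1% did. Since Map4k1 goes against the label in these libraries, the directions are those of the libraries as labelled.

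Nfkbiz was at 101, 95.8 and 75.7 CPM in the libraries labelled HC against 59.0 and 56.7 CPM in controls. The lowest of the 3 was above both controls, and the log2 fold change was 0.65 (standard error 0.14, edgeR adjusted p = 0.114, DESeq2 adjusted p = 0.00595), short of the fold threshold in both tools. It was 0.75 without library 3, the one with Y-linked reads, and 0.57 to 0.75 over the fits that left out 1 library. Relb was at 26.8, 22.5 and 24.8 CPM against 40.7 and 30.1 CPM in controls (log2 -0.52, standard error 0.16, edgeR adjusted p = 0.205). Without library 3 its value was -0.53, and without control library 1 it was -0.28.

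Nfkbie was at 14.9, 9.53 and 11.1 CPM in the libraries labelled HC against 26.3 and 14.8 CPM in controls, with the lower control at the level of library 1. Its log2 fold change was -0.80 (standard error 0.29, edgeR adjusted p = 0.264), and -0.33 without control library 1. Control library 1 was also the library with the most Bcl3 in this experiment, 59.6 CPM against 27.0 CPM in the other control and 42.0, 33.8 and 34.8 CPM in the libraries labelled HC. Nfkbia was the steadiest member, at 70.3, 71.9 and 67.8 CPM against 66.7 and 74.3 CPM. Birc3 was at 47.3, 52.3 and 46.5 CPM against 52.9 and 54.1 CPM, a difference of -0.14 on the log2 scale that left the groups just apart. Tnfaip3 was at 42.8, 37.5 and 35.7 CPM against 39.4 and 29.5 CPM. For the remaining subunits, Nfkb1 was at 85.2 to 107 CPM against 100 and 128 CPM, Nfkb2 at 42.2 to 62.9 CPM against 46.5 and 73.3 CPM, and Rela at 87.9 to 96.9 CPM against 94.1 and 111 CPM, each with overlapping groups.

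The M46 and HPK1 effects, each against its own controls, were then compared in 1 model. It covered the 14884 genes that were listed in both experiments and passed the filter over their libraries together. The difference passed in edgeR for 2.18% of genes and for 0 of 10 members. Nfkbie, with fold changes of 0.71 for M46 and -0.80 for HPK1, differed by 1.51 on the log2 scale (standard error 0.50, edgeR adjusted p = 0.124), and it was the 1 member that DESeq2 called (log2 1.48, adjusted p = 0.0439), where 7.17% of genes were called. At an unadjusted p under 0.05 the difference was seen for 3 members, Nfkbie, Nfkb1 (0.56) and Birc3 (0.52), and for 20.8% of genes. The values for the other 7 ran from -0.53 for Nfkbiz to 0.69 for Bcl3, and none of these passed either test. All of these differences rest on the HC labels. With the HC groups exchanged, the difference of the fitted values would be -0.08 for Nfkbie, -1.24 for Relb and 0.79 for Nfkbiz, so which member differs most depends on that label. The experiments also differed in age and library preparation, and these cannot be told apart from the transgenes.

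In KMC against KC pancreata, 9 of the 10 members had higher means and Rela was level, with Nfkbie, Bcl3 and Tnfaip3 furthest up. No member passed in edgeR, where 0.0191% of 15733 genes did. DESeq2 called Nfkbie, Tnfaip3 and Bcl3, where 14.9% of the 14512 genes with an adjusted p were called. The member median was 1.12 on the log2 scale, and that of all genes 0.03. At an unadjusted p under 0.05, 6 members were higher (Nfkb1, Nfkb2, Nfkbie, Tnfaip3, Birc3 and Bcl3), as were 16.1% of genes, and 0 were lower, where 9.48% of genes were. The groups did not overlap for 8 members in the higher direction, where 34.4% of genes did the same, and for 0 in the lower, where 30.9% did. Library KMC 2 was above KMC 1 for each member. Without KMC 1 edgeR called 5 members (Nfkb2, Nfkbie, Tnfaip3, Birc3 and Bcl3), and without KMC 2 it called 0 with a member median of 0.6. By label the KC mice were the older ones.

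Nfkbie was at 5.43 and 11.1 CPM in KMC against 0.545 and 1.74 CPM in KC. The lower KMC library had 221 counts and the KC libraries 8 and 45. The log2 fold change was 2.80 (standard error 0.63, edgeR adjusted p = 0.0825, DESeq2 adjusted p = 0.000482), 2.24 without KC 1, the library with 8 counts, and 3.92 without KC 2. Nfkbia, the best known IκB gene, was at 23.0 and 32.5 CPM in KMC against 27.6 and 16.3 CPM in KC, with KC 1 between both KMC libraries (log2 0.34, standard error 0.38, edgeR adjusted p = 0.59). In the same libraries, then, the log2 fold change was 2.80 for one IκB gene and 0.34 for the other, and the difference between them was not tested.

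Tnfaip3 was at 6.44 and 13.2 CPM in KMC against 3.68 and 2.83 CPM in KC. Its log2 fold change was 1.61 (standard error 0.46, edgeR adjusted p = 0.112, DESeq2 adjusted p = 0.028). Birc3 was at 12.5 and 21.9 CPM against 6.54 and 8.01 CPM (log2 1.24, standard error 0.38, edgeR adjusted p = 0.124). Both of these ubiquitin enzymes were higher in each KMC library than in each KC library. Bcl3, whose product can turn p50 and p52 dimers into activators, was at 7.35 and 19.8 CPM against 4.36 and 3.44 CPM. It had a log2 fold change of 1.80 (standard error 0.51, edgeR adjusted p = 0.112, DESeq2 adjusted p = 0.0162), and 0.94 without KMC 2. Nfkbiz was at 11.5 and 14 CPM against 10 and 9.95 CPM, so its groups were apart by little.

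Among the subunits, Nfkb1 was at 29.4 and 44.4 CPM in KMC against 16.2 and 19.5 CPM in KC (log2 1.05, standard error 0.35, edgeR adjusted p = 0.139). Nfkb2 was at 13.2 and 30.7 CPM against 9.60 and 9.71 CPM (log2 1.19, standard error 0.44, edgeR adjusted p = 0.159), which was 0.47 without KMC 2 and 1.66 without KMC 1. Relb was at 9.39 and 16.8 CPM against 8.71 and 5.26 CPM, so that KMC 1 lay just above KC 1. Rela was at 27.7 and 34.2 CPM against 33.5 and 29.1 CPM, and the groups interleaved. Of the 4 subunits, 3 were thus above KC in both KMC libraries, as were 34.4% of all genes, and Rela was not.

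**Figure D2:**
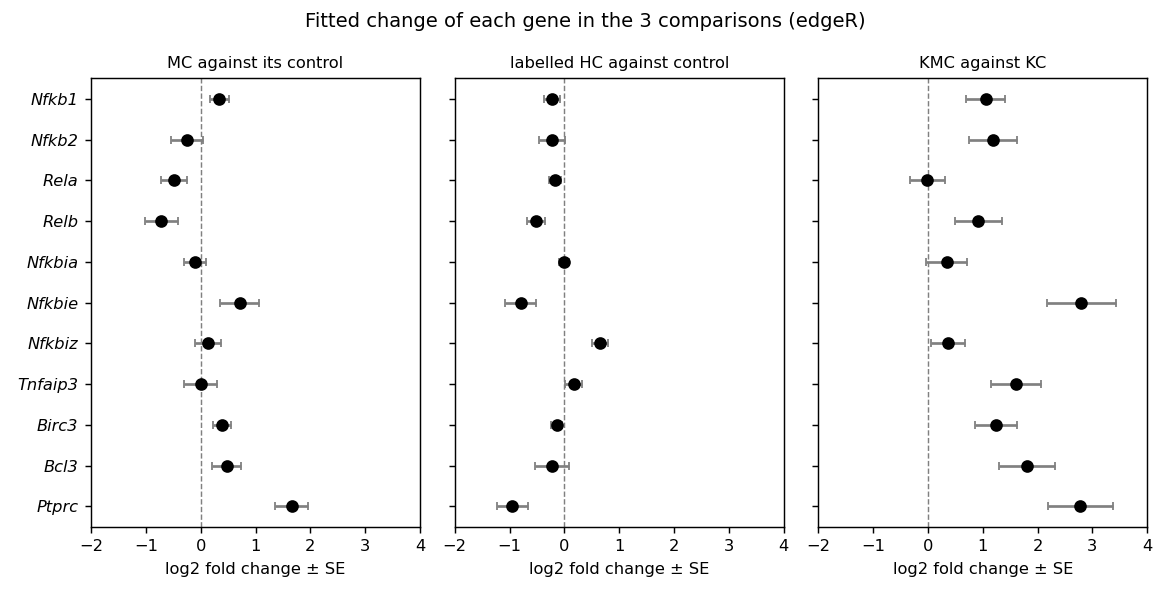
Log2 fold change with its standard error from edgeR for the 10 genes and Ptprc in each comparison; dots right of the dashed line are higher in the first group named. Nfkbie lies at 0.71, -0.80 and 2.80 in the 3 panels, and Ptprc at 1.66, -0.95 and 2.78.

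The size of the KMC values depended on the scaling. By library size alone the median of all genes tested moved to 1.47 and that of the members to 2.65, and edgeR called 9 members and 30% of genes. With acinar genes left out of the library size the medians were 0.75 and 1.88, and 7 members were called. Relative to the median of all genes, the member median was 1.09 with TMM, 1.13 without acinar genes and 1.18 by library size. Rela was at -0.01, 0.74 and 1.5 under the same scalings, which is within 0.1 of the median of all genes each time. The other 9 members were above 0 under each scaling.

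**Figure D3:**
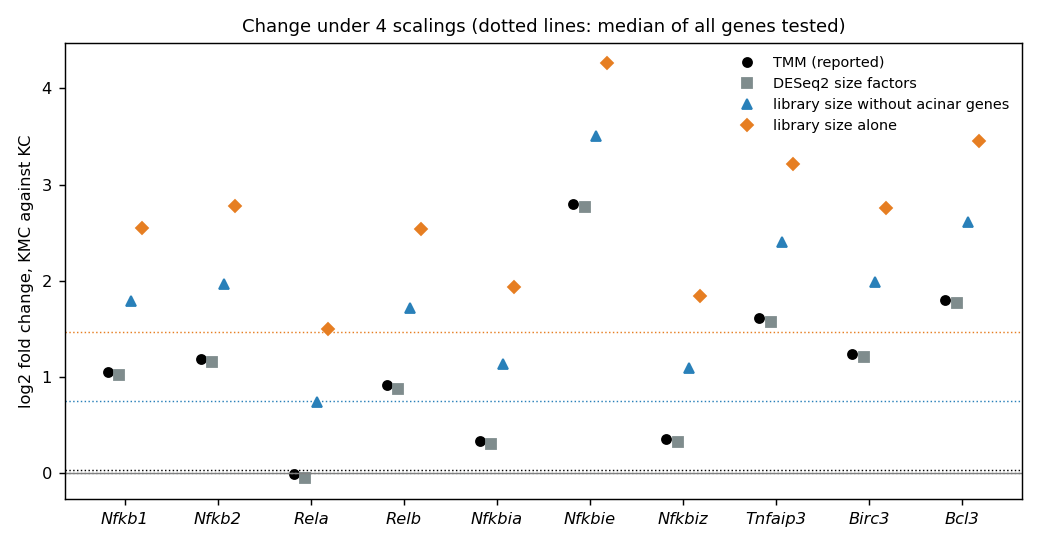
Log2 fold change of each gene in KMC against KC under 4 scalings, with the median of all genes tested as a dotted line of the same colour. All points shift upward together by library size, and Rela stays beside the dotted line, from -0.01 to 1.5.

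Ratios of counts between members within a library do not depend on any scaling, and 8 such ratios were compared in each of the 3 comparisons. None of the exact permutation tests could pass 0.05, since the smallest two-sided p is 0.1 for 3 against 3 libraries, 0.2 for 3 against 2 and 0.333 for 2 against 2. Nfkbie was separated from its controls relative to Rela in each comparison. The share of all genes separated relative to Rela or Nfkb1 was not computed, so no such separation can be called particular to the members. In MC, the CPM of Nfkbie and of Rela each overlapped with controls, with log2 fold changes of 0.71 and -0.49. There were 0.0815, 0.0882 and 0.0827 Nfkbie counts per Rela count in MC against 0.0255, 0.0553 and 0.0296 in controls, a ratio 2.43 times as high (exact permutation p = 0.1). The ratio was 0.153, 0.108 and 0.126 in the libraries labelled HC against 0.238 and 0.158 in controls (exact permutation p = 0.2). In KMC it was 0.196 and 0.325 against 0.0163 and 0.0599 in KC, 8.09 times as high (exact permutation p = 0.333). The groups did not overlap in any of the 3. The order was the other way in the libraries labelled HC, where library 1 and control library 2 lay close together.

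The noncanonical subunit Relb was lower relative to Rela in both cerulein experiments. The Relb/Rela ratio was 0.286, 0.335 and 0.339 in MC against 0.401, 0.381 and 0.339 in controls, with the nearest libraries of each group almost equal (exact permutation p = 0.1). It was 0.276, 0.256 and 0.282 in the libraries labelled HC against 0.368 and 0.320 (exact permutation p = 0.2). In KMC the order was the other way, with 0.339 and 0.491 against 0.260 and 0.181 in KC (exact permutation p = 0.333). The Nfkb2/Nfkb1 ratio, which sets the noncanonical precursor beside the canonical one, was 0.778, 1.03 and 1.11 in MC against 1.84, 1.41 and 1.18 in controls (log2 difference -0.60, exact permutation p = 0.1). It overlapped in the other comparisons.

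Birc3 per Rela count was 0.266, 0.231 and 0.259 in MC against 0.0998, 0.162 and 0.166 in controls (exact permutation p = 0.1), and 0.453 and 0.639 in KMC against 0.195 and 0.276 in KC (exact permutation p = 0.333). Tnfaip3 per Rela count was 0.442, 0.426 and 0.405 in the libraries labelled HC against 0.356 and 0.313 (exact permutation p = 0.2), and 0.232 and 0.387 in KMC against 0.110 and 0.0972 (exact permutation p = 0.333). In MC this ratio overlapped. Nfkbiz per Nfkb1 count was 0.946, 1.12 and 0.766 in the libraries labelled HC against 0.462 and 0.566 in controls, 1.83 times as high (exact permutation p = 0.2), and lower in KMC, at 0.392 and 0.315 against 0.618 and 0.510 (exact permutation p = 0.333). Nfkbia per Rela count and Bcl3 per Nfkb1 count overlapped in MC and among the libraries labelled HC. In KMC, Nfkbia per Rela count was 0.832 and 0.951 against 0.823 and 0.562, nearly touching. The Nfkb1/Rela ratio was added after its values were seen and is given with no test: it was 0.524 to 0.614 in MC against 0.233 to 0.397 in controls, 1.06 and 1.3 in KMC against 0.484 and 0.671 in KC, and 0.969 to 1.12 against 1.06 and 1.16 in the HC experiment.

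**Figure D4:**
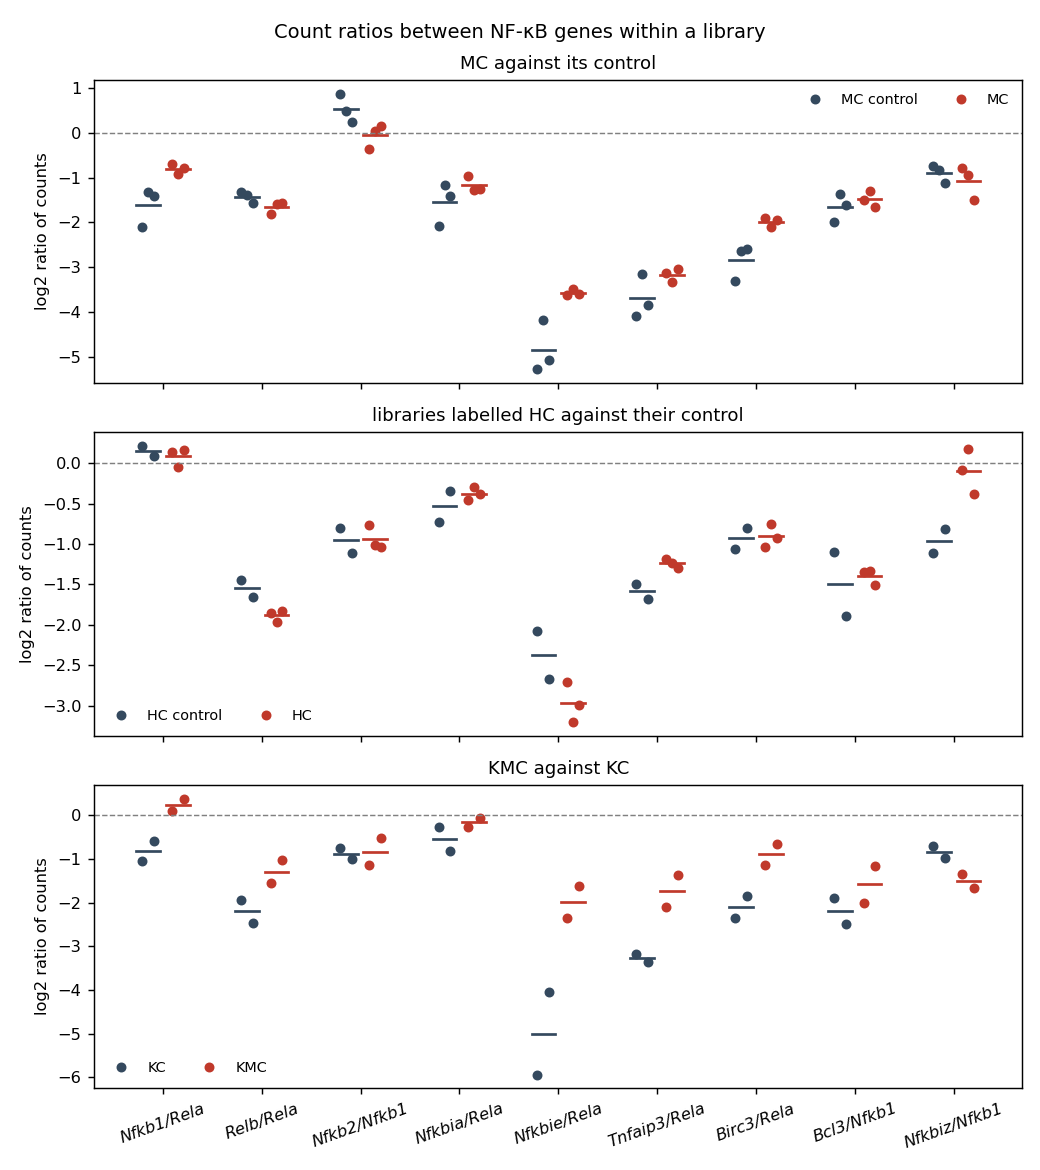
Log2 ratio of counts between pairs of the genes within each library; points are libraries and bars are group means. Nfkbie/Rela is separated upward in MC and KMC and downward in the libraries labelled HC. Relb/Rela is separated downward in the libraries labelled HC and upward in KMC, and in MC its nearest libraries are almost equal.

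Markers of most leukocyte types moved with these groups, neutrophils in MC being the exception. Ptprc, which encodes the leukocyte antigen CD45, was at 38.3 to 52.4 CPM in MC against 8.40 to 19.8 CPM in controls, at 35.1 to 62.6 CPM in the libraries labelled HC against 72.6 and 116 CPM, and at 33.4 and 58.6 CPM in KMC against 3.13 and 10.1 CPM in KC. Of the 8 general leukocyte markers, 8 of 8 were above 0 in MC (median log2 1.03), 8 of 8 below 0 in the HC experiment (-0.82) and 8 of 8 above 0 in KMC (2.64). Their sum was 0.0372 to 0.0677% of counts in MC and 0.011 to 0.0412% in controls, 0.0382 to 0.0544% in the libraries labelled HC and 0.0639 to 0.104% in controls, and 0.0333 to 0.132% in KMC and 0.00289 to 0.00745% in KC. Log2 fold changes of macrophage markers were above 0 for 9 of 9 tested in MC, below 0 for 10 of 10 in the HC experiment and above 0 for 10 of 10 in KMC. T cell markers had median log2 fold changes of 1.94, -0.74 and 2.26 in MC, the HC experiment and KMC, and B cell markers 3.8, -1.31 and 1.63. Neutrophil markers had medians of 0.14, -0.78 and 3.01, and in MC 4 were above 0 and 2 below, with sums of 0.00242 to 0.00534% of counts against 0.000517 to 0.00619% in controls. Log2 fold changes of fibroblast markers were above 0 for 8 of 8 in MC and in KMC and below 0 for 5 of 8 in the HC experiment. No marker on any of the 9 lists was at 0 in all libraries of a table, and the part of these cells in the members' values was not tested.

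Counts of each member were also set against those of Ptprc within each library. Since Ptprc itself differed between the groups, such a ratio differs for most genes, and the members are read against that share. Counts per Ptprc count were lower in MC than in controls for 10 of 10 members with groups that did not overlap, by 0.91 (Nfkbie) to 2.42 (Relb) on the log2 scale with a median of -1.61. Of all genes tested 89.9% did the same, and their median was -1.76. Rela, for one, was at 1.62 to 2.10 counts per Ptprc count in MC and 5.54 to 10.7 in controls. Tnfaip3 was the most even, at 0.190 to 0.207 against 0.624 to 0.627. In the libraries labelled HC the ratio was higher for 9 of 10 without overlap (median 0.80), as for 66.8% of all genes (median 0.95), and highest for Nfkbiz, at 1.55 to 2.73 against 0.507 to 0.781. In KMC it was lower for 9 of 10 without overlap (median -1.94), as for 89% of all genes (median -2.95). In none of the comparisons do these counts set the members apart from other genes.

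Nfkbie was the member whose groups overlapped in this ratio, in KMC and in the HC experiment. In KMC there were 0.163 and 0.190 Nfkbie counts per Ptprc count, and in KC 0.173 and 0.174, although the counts themselves went from 8 to 935. In the HC experiment the ratio was 0.226 to 0.272 against 0.204 to 0.226, with groups that met. In MC it was 0.134 to 0.185 against 0.267 to 0.307, so there Nfkbie was higher by less than Ptprc was. The exact permutation p was 1 in KMC, 0.4 in the HC experiment and 0.1 in MC. In all, 54 ratios were compared with such tests, and with the limits stated for these group sizes none can pass after adjustment.

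**Figure D5:**
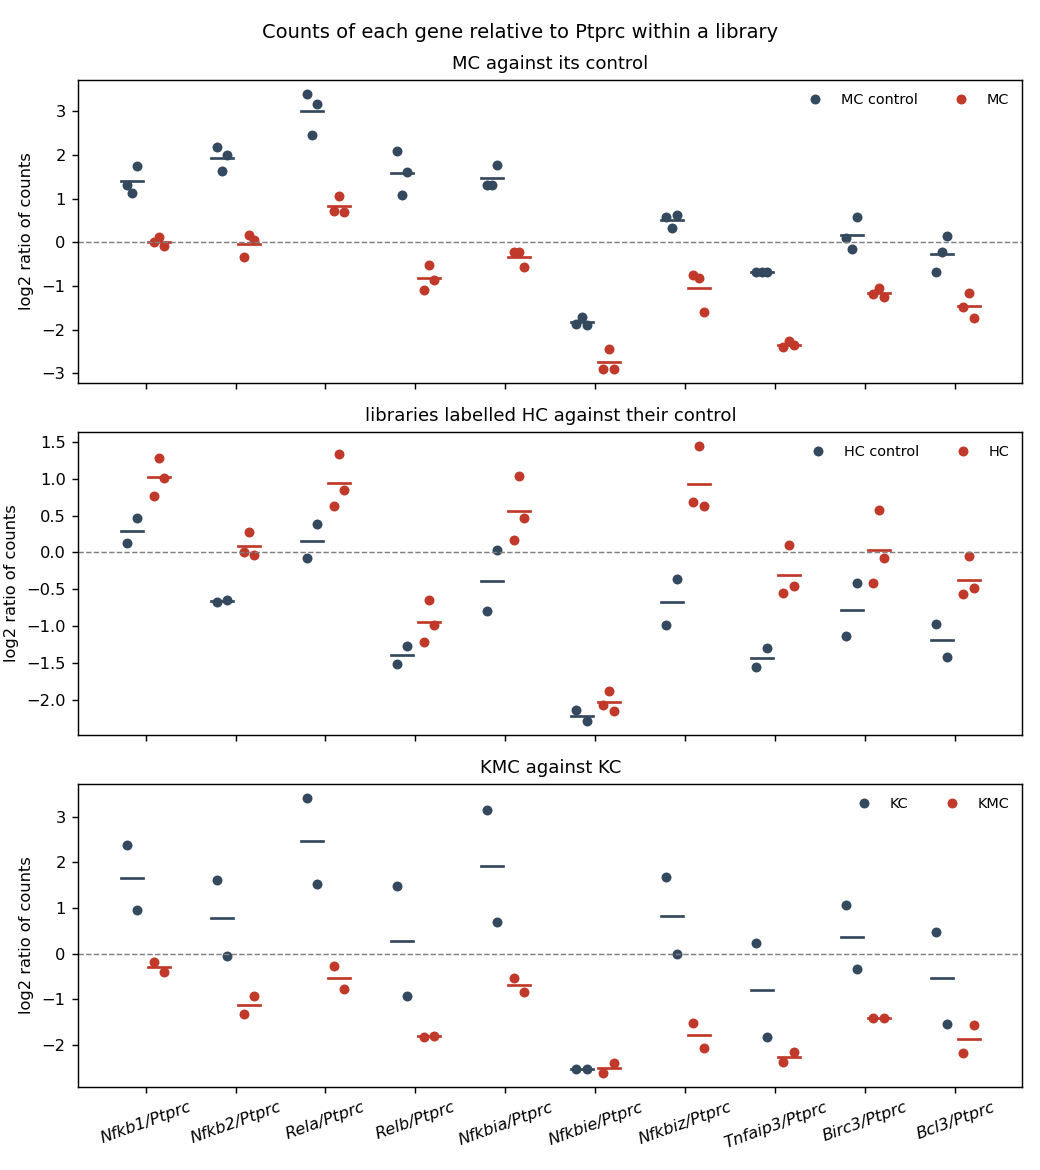
Log2 ratio of each gene's counts to those of Ptprc within a library; points are libraries and bars are group means. The ratios are lower in MC for all 10 genes, higher in the libraries labelled HC for 9 and lower in KMC for 9, as they are for 89.9, 66.8 and 89% of all genes, and Nfkbie/Ptprc is level in KMC.

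The rest of the NF-κB pathway was followed through lists of receptors, ligands, kinases, adaptors and targets. In MC, in the HC experiment and in KMC, 0 genes of any list passed in edgeR. DESeq2, which called 3.26%, 2.88% and 14.9% of the genes it gave an adjusted p, called more. In MC the genes it called included Traf1, Tlr3, Tlr9, Cd40, Tnfrsf13c, Cxcl10 and Ccl5, each higher. In the HC experiment it called Il1a and 2 canonical targets, Ccl20 and Cxcl10, 1 in each direction. In KMC it called 12 of 18 canonical targets, 6 of 8 canonical receptors, 3 of 5 noncanonical receptors, 5 of 7 ligands and 3 of 11 IκB kinase genes higher. In MC the list medians on the log2 scale were near 0 for IκB kinase genes (0.05, 11 genes) and adaptors (0.14, 18 genes) and higher for canonical receptors (0.62, 8 genes), noncanonical receptors (0.77, 5 genes), ligands (0.53, 7 of 10 tested), canonical targets (0.75, 19 of 23 tested) and noncanonical targets (0.49, 5 of 7 tested). Cd40, the noncanonical receptor on B cells and macrophages, was at 4.93 ± 1.11 CPM in MC against 1.11 ± 0.455 CPM (SD, n = 3 each; log2 2.13, edgeR adjusted p = 0.0796). The chemokine gene Ccl5, a canonical target, was at 5.03 ± 0.851 against 1 ± 0.303 CPM (log2 2.32, edgeR adjusted p = 0.0782). Traf1, an adaptor that NF-κB induces, was at 3.88 ± 0.515 against 1.19 ± 0.615 CPM (log2 1.69, edgeR adjusted p = 0.119).

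In the HC experiment the list medians were -0.10 for canonical receptors, -0.44 for ligands and -0.37 for canonical targets. Rel, the fifth subunit gene, encodes c-Rel of lymphoid and myeloid cells and was at 14.9 ± 1.38 CPM in the libraries labelled HC (SD, n = 3) and 20.6 ± 1.79 CPM in controls (SD, n = 2; log2 -0.47, edgeR adjusted p = 0.199). Il1a, the interleukin 1α ligand, had the smallest p among ligands and was higher, at 22.6 ± 9.07 against 10.2 ± 3.5 CPM (log2 1.15, edgeR adjusted p = 0.222). Plaur, the urokinase receptor and a canonical target, was at 59.9 ± 1.67 against 44.2 ± 3.97 CPM (log2 0.44, edgeR adjusted p = 0.119). Both were above their controls without overlap, as were Nfkbiz and 17.5% of all genes. They were picked for the smallest p of their lists, so their separation follows from that choice. On those lists 8 of 10 ligands and 16 of 22 canonical targets tested were below 0.

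In KMC the list medians were 1.85 for canonical receptors, 2.10 for noncanonical receptors, 2.24 for ligands and 2.41 for canonical targets, against 0.13 for IκB kinase genes and 0.25 for adaptors. Rel was at 8.49 ± 3.38 CPM in KMC and 2.19 ± 0.301 CPM in KC (SD, n = 2 each; log2 1.95, edgeR adjusted p = 0.0825), a larger log2 fold change than that of any of the 4 subunit genes described. Map3k14, which encodes NIK of the noncanonical route, was at 8.59 ± 2.63 against 2.49 ± 0.917 CPM (log2 1.77, edgeR adjusted p = 0.0966). The adhesion molecule gene Vcam1, a canonical target, was at 24.8 ± 12.9 against 2.31 ± 1.44 CPM (log2 3.39, edgeR adjusted p = 0.0796). Tlr4, the receptor for bacterial lipopolysaccharide, was at 11.7 ± 5.25 against 2.48 ± 0.057 CPM (log2 2.24, edgeR adjusted p = 0.0796).

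Between the M46 and HPK1 effects, 3 genes of these lists passed in edgeR, where 2.18% of all 14884 genes tested did. They were 1 of 5 noncanonical receptors, 1 of 21 canonical targets and 1 of 18 adaptors tested. Each had the higher log2 fold change for M46. These genes were Cd40 (log2 3.06, standard error 0.45, adjusted p = 0.0188), Cxcl10 (4.47, standard error 0.75, adjusted p = 0.0267) and Traf1 (2.58, standard error 0.59, adjusted p = 0.0483). Rel had 1.27 (standard error 0.30, adjusted p = 0.0523). For the same contrast Ptprc had 2.6 (standard error 0.45, adjusted p = 0.028) and Map4k1 2.11 (standard error 0.35, adjusted p = 0.0262). These values rest on the HC labels as well.

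To describe which genes had patterns most like each member, the root mean square difference of log2 CPM was taken over the 15 libraries after subtracting each table's mean, among 12061 genes tested in all tables. Birc3 was closest to Ndst2 (0.06), and Nfkb1 to Dnajc13 (0.08). Nfkbia was closest to Hmgn1 (0.12), Rela to Prmt5 (0.14), Tnfaip3 to Clic1 and Nfkb2 to Zyx (0.16 each), Nfkbie to Rasgrp4 (0.17), Nfkbiz to Tspan12 (0.18), Bcl3 to Efemp2 (0.19) and Relb to Socs2 (0.25). The nearest other member was Birc3 for Nfkb1 at 0.13, which ranked 70 among all genes, and Nfkb2 for Relb at 0.26, which ranked 3. Rela and Nfkbia were nearest to each other among members at 0.28, but ranked 2078 and 2455 in each other's order. Nfkbie varied most over libraries, with an SD of 1.01 on the log2 scale, and its nearest member Bcl3 was at 0.58. The points share the tables, libraries and tissue composition, so these are descriptions.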

How the data were processed

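RNA-Seq was performed on pooled pancreas RNA. The authors aligned reads with STAR to GRCm38 and summed them over GENCODE genes. The submitters' processing notes also name HTSeq 0.6.1, with STAR 2.6.1a. The authors deposited raw counts, without normalization, and a DESeq2 comparison of MC with controls, which was not used. Labels name Trizol and standard Illumina libraries for the MC experiment and a stranded KAPA kit for the others, while the study's methods name other kits, and the strand setting of the counting is not given in the sources used here. Counts of Map4k1 may include transgene reads.

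Genes were filtered with filterByExpr, scaled by TMM and tested with edgeR 4.0.16 (glmQLFit, glmQLFTest) in R 4.3.3, within each table. The M46 and HPK1 effects were compared in 1 fit. Standard errors are the log2 fold change over the square root of F. DESeq2 1.42.0, other scalings, no filter, a replicate block, 9 libraries in 1 fit and leaving out each library were alternatives. Same-numbered libraries correlated at -0.28 to 0.29 and others at -0.38 to 0.33. In KMC, with 2 libraries per group, these values mirrored each other (0.03 and -0.03). Whether numbers pair the libraries was thus not settled, and the main fits assumed no pairing. The code of the test was run on simulated counts with the same spread set for every gene. That run does not show how the test performs on these libraries. Separate animals or cultures are known only from labels, so p-values measure the spread between these pooled libraries.

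Per-kilobase levels used the union of a gene's GENCODE exons. The members and lists were chosen with earlier results of these data known. Named genes besides the members were the smallest edgeR p of each pathway list in a comparison (a selection of these is given), Map4k1, Ptprc and the most alike gene of each member. Promoter sequences are from RefSeq. Chi-square values between libraries of a group exceeded sampling noise.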

Additional observations from a re-analysis of the deposited data

Results flagged for a closer look

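Of the genes named here, 5 outside the 10 were noted. Their M46 and HPK1 effects, each against its own controls, differed in edgeR's test of that difference. Of all 14884 genes tested, 2.18% passed the same test. The differences on the log2 scale were 2.11 for Map4k1, 2.6 for Ptprc, 3.06 for Cd40, 4.47 for Cxcl10 and 2.58 for Traf1. In MC against controls Cxcl10 was at 9.87 ± 6.22 against 1.38 ± 0.42 CPM (SD, n = 3 each). In the HC experiment, with 3 and 2 libraries, Cxcl10 was at 0.949 ± 0.137 CPM in the libraries labelled HC against 3 ± 1.6 CPM in controls. There Cd40 was at 3.53 ± 0.336 against 6.75 ± 2.42 CPM, and Traf1 at 6.27 ± 2.25 against 11.7 ± 6.01 CPM with overlapping groups. None of the 10 members met this test in edgeR.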

How the results depend on the processing

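In MC, edgeR called 0 genes, DESeq2 called 453, library size alone gave 1, and leaving out 1 library gave 0 to 718. For the HC experiment 104 genes became 468 with DESeq2, 1 with 9 libraries in 1 fit, 51 with library size without acinar genes, 395 without a filter and 0 to 379 when leaving out 1 library. For KMC 3 genes became 2159 with DESeq2, 3230 with 9 libraries, 4715 by library size alone, 2470 by library size without acinar genes, 9 without a filter and 0 to 2312 when leaving out 1 library, and members called became 3, 5, 9 and 7 in the first 4 and 0 to 5 in the last. For the difference between the M46 and HPK1 effects 325 genes became 1005 with DESeq2 (1 member), 98 by library size alone, 130 without acinar genes and 0 to 1584 (0 to 1 members) when leaving out 1 library. The cause was not tested. A replicate block gave 339 genes for HC, 2464 genes and 4 members for KMC (Nfkbie, Tnfaip3, Birc3 and Bcl3) and 0 genes for the difference of effects, and 0.06 for Tnfaip3 in MC and 0.01 for Nfkbia in the HC experiment on the log2 scale.

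Members near 0 changed sign. In MC, Tnfaip3 became 0.00 with DESeq2 and with its size factors, 0.25 by library size alone and 0.06 without acinar genes, Nfkb2 0.04 and Nfkbia 0.16 by library size alone, and leaving out 1 library gave -0.24 to 0.34 for Tnfaip3, -0.25 to 0.15 for Nfkbia and -0.07 to 0.35 for Nfkbiz. In the HC experiment leaving out 1 library gave -0.52 to 0.13 for Nfkb2, -0.09 to 0.07 for Nfkbia, -0.03 to 0.39 for Tnfaip3 and -0.69 to 0.45 for Bcl3. In KMC, Rela became 0.02 with 9 libraries, 1.5 by library size alone, 0.74 without acinar genes, 0.08 without a filter and -0.16 to 0.12 when leaving out 1 library. For the difference of effects, library size alone gave 0.31 for Nfkb2, 0.04 for Rela, 0.15 for Relb, 0.22 for Nfkbia and 0.13 for Tnfaip3, library size without acinar genes gave 0.11 for Nfkb2 and 0.04 for Nfkbia, and leaving out 1 library gave -0.39 to 0.26 for Nfkb2, -0.46 to 0.08 for Relb, -0.25 to 0.15 for Nfkbia and -0.43 to 0.16 for Tnfaip3. Among ratios, leaving out 1 library gave log2 differences of -0.33 to 0.03 for Nfkbiz/Nfkb1 in MC, -0.14 to 0.16 for Nfkb2/Nfkb1, -0.04 to 0.35 for Nfkbia/Rela, -0.10 to 0.16 for Birc3/Rela and -0.30 to 0.49 for Bcl3/Nfkb1 in the HC experiment, and -0.27 to 0.35 for Nfkb2/Nfkb1 and -0.09 to 0.13 for Nfkbie/Ptprc in KMC. Of the values recomputed, 349 with another setting and 524 with 1 library left out stayed the same. For ratios this means the same sign, and for members the same sign and side of the threshold. For counts of genes it means a similar number. Of the rest, 19 with another setting and 30 with 1 library left out changed sign, and the others crossed the threshold or changed in number of genes. Where a fit left 1 library in a group, that library was assumed to vary like the other group.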
